A study of Mus musculus with 15 samples.

Results

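The genes described here are the nuclear genes of the oxidative phosphorylation complexes, the enzymes of the inner mitochondrial membrane that pass electrons from nutrients to oxygen and make ATP. They were taken by symbol: Nduf with the letters a, b, c, s or v, Sdha to Sdhd, Uqcr, Cox4 to Cox8 and Atp5, with 7 pseudogene symbols containing -ps left out. The rule found 93 of the 47069 genes in the table. It uses names and no measured value, but it also takes in 9 assembly factors, 8 isoforms of complex IV subunits with restricted tissue patterns, and the genes Cox7a2l and Atp5s, so that 74 of the 93 encode subunits found in the complexes of most tissues (36 of complex I, 4 of complex II, 8 of complex III, 11 of complex IV and 15 of complex V). Ndufa4 was counted with complex IV, where its protein is found, and Atp5sl with the complex I assembly factors.

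RNA-Seq was done on proximal tubules microdissected singly and labelled PTS2 (12 libraries) and on whole kidney (3 libraries). All came from male C57BL/6 mice aged 2 months, and the labels name no genotype, treatment or Cre line in either group. The tubules fall into sets m1 to m3, 4 replicates in each of the 3. The labels explain neither the letter m nor whether the replicates of a group come from separate animals, so p-values measure the spread between these libraries, which may in part be technical. Values are TPM, transcript abundances scaled to transcript length and to a total that all libraries share. Depth is unknown, so no counting error is given. In bulk RNA, fewer cells of a type and less RNA per cell cannot be told apart.

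Complex I takes electrons from NADH and complex II from succinate, complex III hands them to cytochrome c, complex IV passes them to oxygen, and complex V (ATP synthase) uses the proton gradient that results. Most subunits are encoded in the nucleus and some in mitochondrial DNA, so that the complexes are built from both genomes with the help of assembly factors. The proximal tubule reabsorbs most of the filtered salt, glucose and amino acids, and it is rich in mitochondria that burn fatty acids.

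Here and below, values with ± are means and SD over 12 tubules or 3 kidney libraries, and log2 differences carry their SE. All 3 markers of the late segment S3 were higher in PTS2 than in whole kidney, and their summed level was 3193 ± 521 TPM in the tubules against 1192 ± 162 TPM in the kidney libraries. Of the S2 markers, Slc22a6 was at 585 ± 228 TPM in the tubules and 486 ± 44.1 TPM in the kidney libraries (log2 difference 0.17 ± 0.31, limma, adjusted p = 0.670). Slc22a8 was lower in every tubule than in every kidney library, at 68.0 ± 42.2 against 272 ± 11.3 TPM (-2.21 ± 0.47, adjusted p = 0.000882). The label PTS2 thus had 1 of its 2 S2 markers below whole kidney and all S3 markers above it. The S1 markers summed to 0.80 ± 0.506 and 740 ± 40.7 TPM. A pair of libraries stood apart. The PTS2 library m3 replicate 3 carried 1441 TPM of thick ascending limb markers, against at most 55.8 TPM in the other tubules and 2425 to 2723 TPM in whole kidney. Whole kidney replicate 3 carried fat markers (Ucp1, Cidea, Adipoq and Plin1, a list added after the data were seen), with a sum of 17.5 TPM against 0.11 TPM in each of the other kidney libraries and at most 0.09 TPM in a tubule. Across all 12039 genes tested, the median log2 difference between PTS2 and whole kidney was -0.27 in the deposited TPM, -0.00 after median-of-ratios rescaling and 0.16 after quantile normalization. The direction of a modest difference therefore depends on the scaling, and values below are those of the deposited TPM unless another scaling is named.

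The promoters of 4 members are shown as a description, and no difference in level reported below rests on their letters. The levels of Cox7a1 and its general counterpart Cox7a2 differed in proportion between the groups. The printed stretches of Atp5h and Ndufv2 hold the core letters of the binding site of NRF1, a regulator of respiratory chain genes. Sequences are from RefSeq (GRCm38.p6), 5′ to 3′ on the gene's strand. Each is the stretch that lies before the gene's start and in no annotated exon, within 250 bases of the start. Stretches under 150 bases were not printed. Capitals mark CG pairs in the first pair of genes and the NRF1 core, GCGC followed by any 2 bases and GCGC, in the second pair.
Cox7a1 (chr7:30183921-30184143, plus strand): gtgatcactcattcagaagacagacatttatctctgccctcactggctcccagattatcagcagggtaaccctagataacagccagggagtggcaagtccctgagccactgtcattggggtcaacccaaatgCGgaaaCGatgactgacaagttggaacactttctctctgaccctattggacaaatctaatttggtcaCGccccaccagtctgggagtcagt
Cox7a2 (chr9:79759879-79760103, minus strand): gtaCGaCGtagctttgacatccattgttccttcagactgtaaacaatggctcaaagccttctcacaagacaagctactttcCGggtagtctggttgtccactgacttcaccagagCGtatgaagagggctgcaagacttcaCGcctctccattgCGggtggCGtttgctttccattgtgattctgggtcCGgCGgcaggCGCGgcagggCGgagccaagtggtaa
Atp5h (chr11:115419963-115420127, minus strand): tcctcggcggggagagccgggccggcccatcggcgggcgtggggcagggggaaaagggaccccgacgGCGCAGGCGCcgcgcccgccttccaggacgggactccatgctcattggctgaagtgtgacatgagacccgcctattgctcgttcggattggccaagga
Ndufv2 (chr17:66101560-66101809, minus strand): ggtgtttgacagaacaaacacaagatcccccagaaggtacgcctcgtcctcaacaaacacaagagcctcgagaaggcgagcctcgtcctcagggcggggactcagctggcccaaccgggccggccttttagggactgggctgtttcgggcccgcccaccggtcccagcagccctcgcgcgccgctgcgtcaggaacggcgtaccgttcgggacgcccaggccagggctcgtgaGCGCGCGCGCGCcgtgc
The stretch of Cox7a1 holds 3 CG pairs in 223 bases, and that of Cox7a2 holds 12 in 225. Atp5h holds 1 core match and Ndufv2 holds 2 that overlap each other.

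RefSeq windows of 300 bases (250 before the start and 50 after it) were at hand for 74 of the 93 members, 79 windows in all. The NRF1 core was present in 22 of the 79 windows (27.8%), against 6.23% of all 32851 windows. The 22 include windows of members more abundant than Atp5h and Ndufv2, such as Atp5g3 and Cox6a1 (PTS2 means of 2787 and 2647 TPM). The letters CCGGAAG, bound by factors of the ETS family such as GABP, were present in 18 (22.8%), against 8.86% of all windows. The letters AAGGTCA, bound by estrogen-related receptors, were present in 8 (10.1%), against 4.72%. Each motif was searched on both strands, and windows of the same gene can overlap. The median number of CG pairs was 19 in the members' windows and 7 in all windows. The part of CG content in these shares was not tested. A match is a description of the letters and not a binding site.

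These genes were among the most abundant of the tubule. The 74 subunit genes together held 7.98% ± 0.595 of all TPM in the tubules (n = 12) and 8.43% ± 0.412 in the kidney libraries (n = 3). Of the 89 members tested, 86 had a PTS2 mean above 12.0 TPM, the median of all genes tested. Of the 74 subunits, 70 exceeded 100 TPM in every one of the 15 libraries. The most abundant member was Atp5b, the catalytic beta subunit of ATP synthase. It ranged from 6192 to 6983 TPM in the tubules (median 6726) and stood at 6807, 6521 and 6885 TPM in whole kidney. The groups overlapped, and their log2 difference was -0.01 ± 0.05 (limma, adjusted p = 0.858) in the deposited TPM. Under median-of-ratios rescaling it was 0.28 (adjusted p = 0.00481) and under quantile normalization -0.24 (adjusted p = 0.00867), so the sign of the Atp5b difference rests on the scaling.

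**Figure D1:**
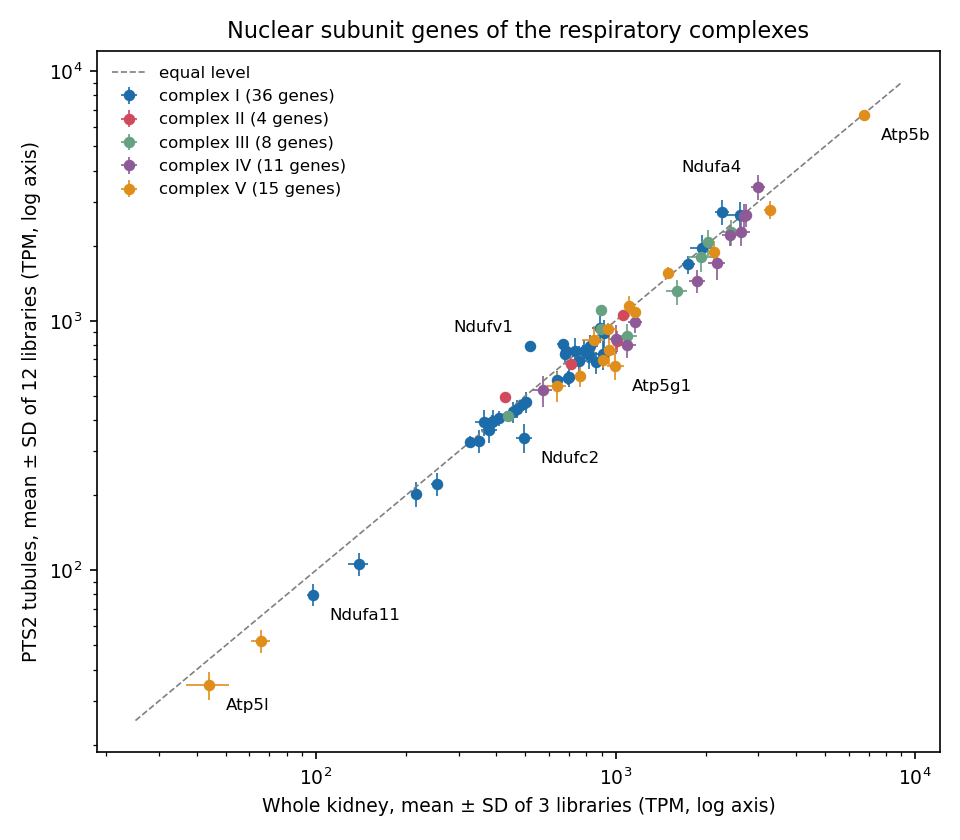
Mean TPM of the 74 subunit genes in whole kidney (x axis, n = 3) and in PTS2 tubules (y axis, n = 12), both on log axes, coloured by complex; bars are SD and the dashed line marks equal levels in the deposited TPM. The genes lie close to the line from Atp5l to Atp5b, with Ndufv1 above it and Atp5g1 and Ndufc2 below it.

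Subunits of one complex differed widely in level although many are present in equal numbers in the protein. In complex I, the highest PTS2 mean was that of the membrane arm subunit Ndufb8 (2728 ± 308 TPM) and the lowest that of Ndufa11 (79.9 ± 8.08 TPM), a ratio of 34.1. In complex II, Sdhb, the iron-sulfur protein, had 1054 ± 44.6 TPM and the membrane anchor Sdhc 494 ± 14.4 TPM, a ratio of 2.13. Complex III ran from Uqcr11, a small subunit at 2270 ± 272 TPM, to the core protein Uqcrc2 at 415 ± 17.7 TPM, a ratio of 5.47. Complex IV ran from Ndufa4 (3450 ± 391 TPM) to Cox7c (526 ± 75.0 TPM), a ratio of 6.56. Complex V was the widest, from Atp5b (6681 ± 226 TPM) to Atp5l, a membrane subunit at 34.7 ± 4.57 TPM, a ratio of 192. All these SD are over 12 tubules.

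Near copies bear on some of these levels. Atp5l has 6 pseudogene copies of at least 95% identity in the table, which together held 30.3% of the summed TPM of gene and copies in PTS2 and 34.9% in whole kidney. The copy Gm4045 alone held 20.5% and 24.9%. For Ndufa12, the copy Gm15920 held 12.6% and 13.2%. How reads were shared between these genes and their copies cannot be seen in the table, so both levels are uncertain.

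The order of the levels was alike in both tissues. Across the 74 subunit genes, Spearman's rho between the PTS2 and whole kidney means was 0.96, as a description across genes that share libraries and are not independent. Within complexes it ran from 0.90 in complex III to 1.0 in complex II, which has 4 genes.

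Summed by complex, the subunits of PTS2 stood between 91.4% and 99.4% of whole kidney in the deposited TPM. For complex I the sums were 26209 ± 2209 TPM in the tubules against 26371 ± 1343 TPM (99.4%), and for complex III 10755 ± 952 against 11317 ± 699 TPM (95.03%). Complex IV summed to 19484 ± 2097 and 21313 ± 1207 TPM (91.4%), and complex V to 20276 ± 815 and 22075 ± 817 TPM (91.9%). In each of these 4 the libraries of the groups overlapped. Complex II, the only complex with no subunit from mitochondrial DNA, summed to between 2968 and 3118 TPM in the tubules (median 3061) and to 3247, 3138 and 3228 TPM in whole kidney. Every tubule thus lay below every kidney library for complex II in the deposited TPM (95.2%), while under median-of-ratios rescaling all 5 sums were above whole kidney, at 112 to 122%. The SD of the complex II sum was also small, 52.7 TPM on 3051.

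**Figure D2:**
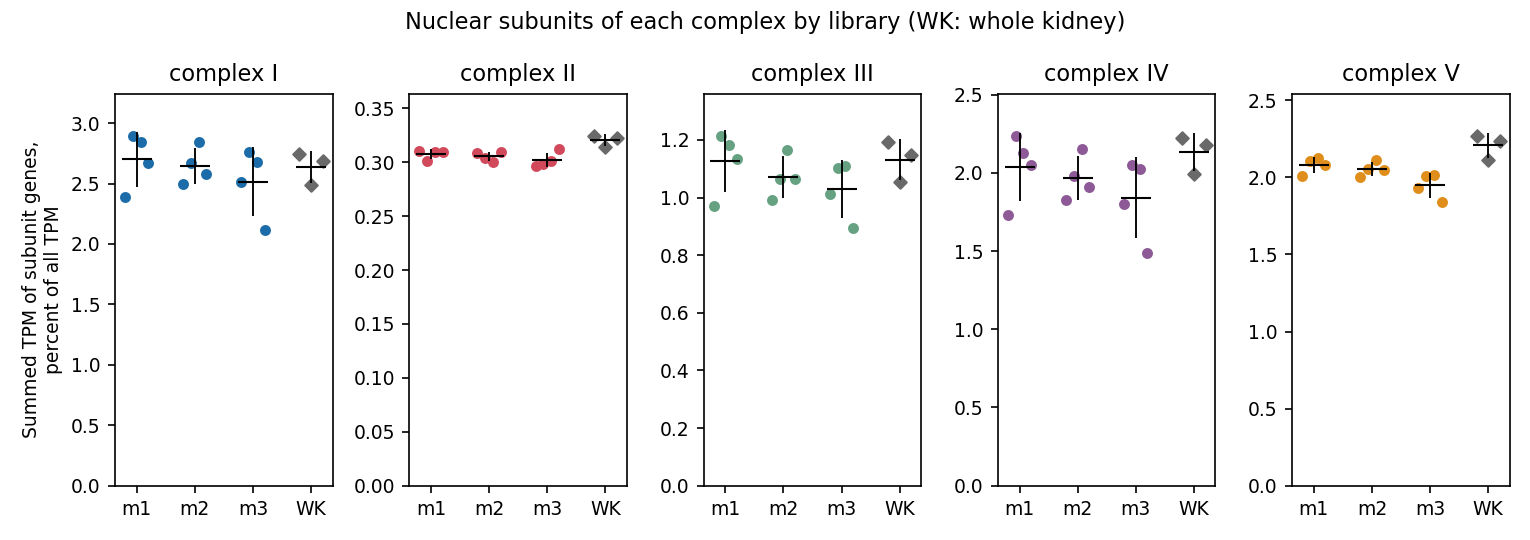
Summed TPM of the subunit genes of each complex as a percent of all TPM (y axis, from 0) in each library, by PTS2 set m1 to m3 (circles) and in whole kidney (WK, grey diamonds); horizontal marks and bars are mean ± SD of 4 tubules or 3 kidneys. Complex II varies least and m3 replicate 4 is the lowest tubule in complexes I, III, IV and V; the scale is that of the deposited TPM, and rescaling shifts the groups against each other.

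Shares among the subunits are unchanged by a single factor per library, as in median-of-ratios rescaling, though not by quantile normalization. In the deposited TPM, complex I held 32.8% ± 0.480 of the summed subunit TPM in PTS2 (31.9 to 33.6%) and 31.3% ± 0.0738 in whole kidney, with no overlap. The share of complex IV was 24.4% ± 0.883 and 25.3% ± 0.207, that of complex V 25.5% ± 1.09 and 26.2% ± 0.318, that of complex III 13.5% ± 0.271 and 13.4% ± 0.189, and that of complex II 3.85% ± 0.343 and 3.81% ± 0.119. Those of complexes II to V overlapped between the groups. For each TPM of the 13 tricarboxylic acid cycle genes, the matrix enzymes that supply electrons, there were 16.2 ± 1.79 TPM of nuclear subunits in PTS2 and 16.6 ± 0.594 TPM in whole kidney.

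Gene by gene, 35 of the 89 members tested differed between PTS2 and whole kidney at an adjusted p under 0.05 (limma on log2(TPM + 1)), 7 higher and 28 lower in PTS2 in the deposited TPM. Over all genes tested, 51.2% were called in either direction, 9.68% higher and 41.5% lower. The libraries of the groups did not overlap for 28 of the 89 members, against 37.8% of all genes. Both counts of 28 take in Cox6a2 and Ndufa4l2, which reached the filter of a mean of 1 TPM through whole kidney alone and so could only be lower; without them 26 were lower. After median-of-ratios rescaling 26 were higher (background 23.5%) and 4 lower (23.8%, together 47.2%), and after quantile normalization 5 were higher (34.6%) and 46 lower (18.9%, together 53.5%), again with these 2 among the lower. The 28 lower calls fell to 16 without whole kidney replicate 1 and to 15 without whole kidney replicate 3, where 33.8% of all genes were called lower in each case. The median log2 difference of the members was -0.09 in the deposited TPM against -0.27 for all genes, 0.20 against -0.00 after median-of-ratios rescaling, and -0.21 against 0.16 after quantile normalization.

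Of the members whose PTS2 mean was itself over 1 TPM, 4 were called higher under all 3 scalings (Ndufv1, Ndufa10, Ndufaf2 and Ndufaf6) and 2 were called lower (Cox7a1 and Cox6b2). The 4 belong to complex I, as subunits or assembly factors, and the other 2 are isoforms of complex IV subunits with a restricted pattern. No subunit of complexes II, III or V was among them. The share of all genes called in the same direction under all 3 scalings was not counted. Whether these counts are few or many therefore cannot be said.

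**Figure D3:**
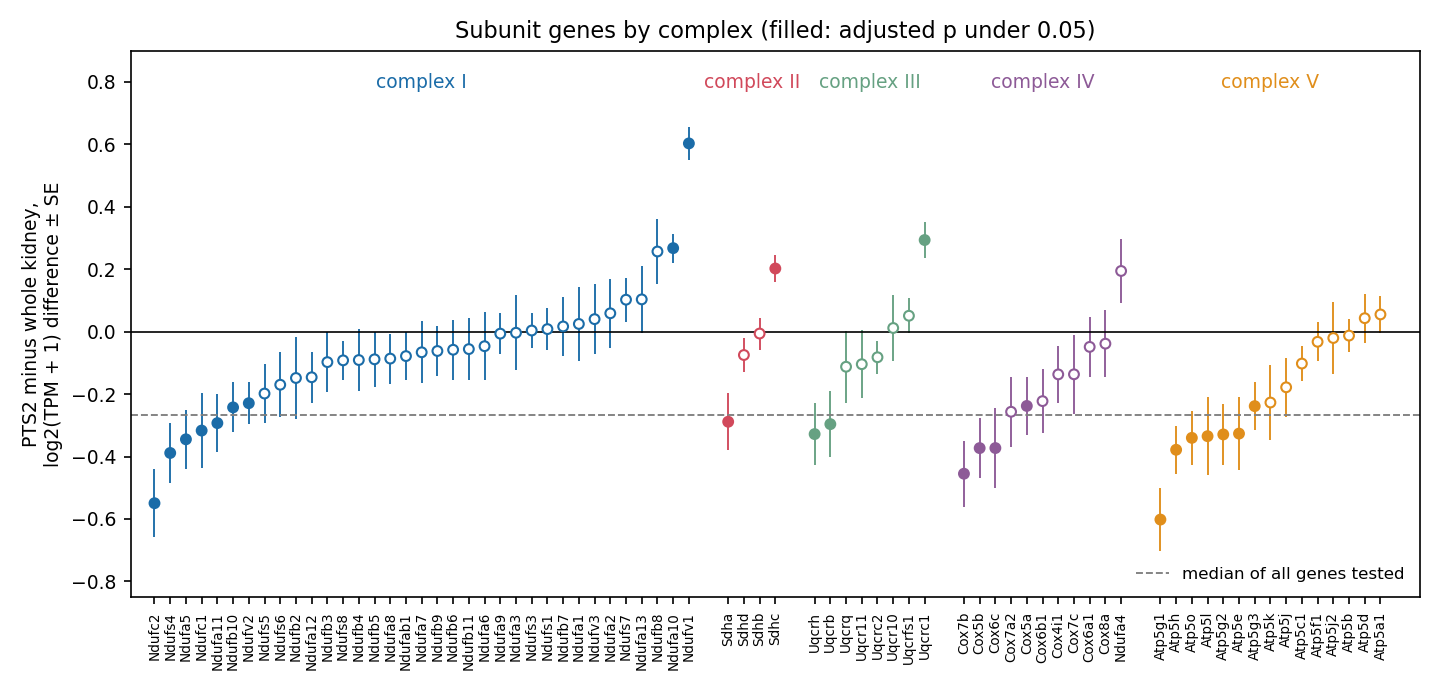
Difference between PTS2 (n = 12) and whole kidney (n = 3) in log2(TPM + 1) with its SE (y axis) for subunit genes, sorted within complexes I to V; filled points have an adjusted p under 0.05, and the dashed line is the median of all genes tested in the deposited TPM (-0.27). Ndufv1 is highest and Atp5g1 lowest; median-of-ratios rescaling moves the points up by about the distance to the dashed line, and quantile normalization moves most of them down.

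In complex I, the subunit with the largest difference upwards was Ndufv1, which carries the flavin and the NADH binding site. It ranged from 721 to 831 TPM in the tubules (median 797) and stood at 525, 518 and 517 TPM in whole kidney. Every tubule lay above every kidney library. The log2 difference was 0.60 ± 0.05 (adjusted p = 6.79e-08) in the deposited TPM, 0.90 after median-of-ratios rescaling and 0.45 after quantile normalization, and 0.60 and 0.61 without whole kidney replicate 3 and without m3 replicate 3.

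Ndufv2, which sits beside Ndufv1 in the NADH-oxidising module, went the other way in the deposited TPM. It ranged from 516 to 651 TPM in the tubules (median 601) and stood at 688, 658 and 730 TPM in whole kidney, with no overlap. Its log2 difference was -0.23 ± 0.07 (adjusted p = 0.0103), -0.38 after quantile normalization (adjusted p = 0.000277) and 0.06 after median-of-ratios rescaling (adjusted p = 0.640). Without whole kidney replicate 3 it was -0.19 and not called (adjusted p = 0.0722). The ratio of Ndufv1 to Ndufv2 TPM, which a single factor per library leaves unchanged, was 1.34 ± 0.120 in the tubules (1.196 to 1.556) and 0.763, 0.786 and 0.707 in whole kidney. This pair was chosen after its values were seen.

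Ndufa10, a membrane arm subunit, was also called higher. It ranged from 773 to 837 TPM in the tubules (median 807) against 695, 636 and 679 TPM in whole kidney, with no overlap. Its log2 difference was 0.27 ± 0.05 (adjusted p = 0.000162), 0.56 after median-of-ratios rescaling and 0.12 after quantile normalization.

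Of the 36 complex I subunits, 3 were called higher and 7 lower in the deposited TPM, against 9.68% and 41.5% of all genes tested. The 7 were Ndufc2, Ndufs4, Ndufa5, Ndufc1, Ndufa11, Ndufb10 and Ndufv2, none of which was called after median-of-ratios rescaling, while all but Ndufa11 were also called lower after quantile normalization. Leaving out 1 library ended 4 of these calls: Ndufa11 without whole kidney replicate 1, Ndufb10 without whole kidney replicate 1 or 3, Ndufv2 without whole kidney replicate 3, and Ndufc1 without any 1 of the kidney libraries or m1 replicate 1. Ndufc2, a membrane arm subunit, had 340 ± 43.8 TPM in the tubules and 498, 465 and 524 TPM in the kidney libraries, a log2 difference of -0.55 ± 0.11 (adjusted p = 0.000502). The highest tubule, at 424 TPM, lay below the lowest kidney library. For Ndufs4, a peripheral arm subunit, the means were 106 ± 11.1 and 139 ± 10.7 TPM and the log2 difference -0.39 ± 0.10 (adjusted p = 0.00286). For Ndufa5, also of the peripheral arm, they were 681 ± 68.4 and 863 ± 60.3 TPM and the log2 difference -0.34 ± 0.09 (adjusted p = 0.00597). Without these 10, 26 of the 36 did not pass the test in the deposited TPM.

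The assembly factors of complex I build the enzyme but are not part of it. Ndufaf2 ranged from 49.6 to 79.3 TPM in the tubules (median 64.9) against 46.2, 46.5 and 44.0 TPM in the kidney libraries, a log2 difference of 0.48 ± 0.11 (adjusted p = 0.00122). Ndufaf2 shares 1955 of its 2978 exonic bases with B230220B15Rik on the opposite strand, and the labels do not say that strand was kept, so reads of the 2 genes cannot be told apart. Ndufaf6 ranged from 81.9 to 113 TPM (median 97.2) against 70.1, 80.7 and 69.6 TPM, a log2 difference of 0.40 ± 0.09 (adjusted p = 0.00186). In both genes every tubule lay above every kidney library, and both calls held under all 3 scalings. Ndufaf5 and Atp5sl were lower in the deposited TPM (log2 differences -0.64 ± 0.21, adjusted p = 0.0179, and -0.43 ± 0.12, adjusted p = 0.00815) but were not called after median-of-ratios rescaling, nor was Ndufaf5 without whole kidney replicate 2 or 3.

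Of 7 further complex I assembly genes outside the symbol rule, 2 were higher, Acad9 and Ecsit, and none lower in the deposited TPM. Among all genes tested, 9.68% were higher and 41.5% lower. Acad9, an acyl-CoA dehydrogenase relative that acts in complex I assembly, ranged from 167 to 242 TPM in the tubules (median 206) and stood at 107, 139 and 109 TPM in whole kidney. Its log2 difference was 0.79 ± 0.12 (adjusted p = 4.34e-05), and 1.08 and 0.85 under the other scalings. For Ecsit the means were 138 ± 9.85 and 115 ± 7.59 TPM and the log2 difference 0.25 ± 0.07 (adjusted p = 0.00776), also called under the other scalings but not without whole kidney replicate 3 (0.20, adjusted p = 0.0691).

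In complex II, whose 4 subunits are the succinate dehydrogenase of the tricarboxylic acid cycle, 1 subunit was called higher and 1 lower in the deposited TPM. The background over all genes tested was 9.68% higher and 41.5% lower. The membrane anchor Sdhc ranged from 467 to 517 TPM in the tubules (median 495) against 434, 420 and 433 TPM, a log2 difference of 0.20 ± 0.04 (adjusted p = 0.00127), with 0.08 after quantile normalization (adjusted p = 0.137). The flavoprotein Sdha ranged from 641 to 956 TPM (median 848) against 997, 990 and 1044 TPM, a log2 difference of -0.29 ± 0.09 (adjusted p = 0.0141). Its difference was 0.00 after median-of-ratios rescaling, and without whole kidney replicate 3 the adjusted p was 0.0661. The ratio of Sdhc to Sdha was 0.602 ± 0.0777 in the tubules and 0.425 ± 0.0106 in whole kidney, with no overlap, again a pair chosen after its values were seen. Of the 4 complex II assembly genes, Sdhaf1 was higher (32.8 ± 3.61 against 23.1 ± 1.85 TPM, log2 difference 0.48 ± 0.10, adjusted p = 0.000538) under all 3 scalings, and Sdhaf2 was lower in the deposited TPM only (-0.44 ± 0.08, adjusted p = 0.000149).

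In complex III, 1 of 8 subunits was called higher and 2 lower in the deposited TPM, against 9.68% and 41.5% of all genes tested. Uqcrc1, a core protein of the matrix side, ranged from 975 to 1182 TPM in the tubules (median 1102) against 882, 910 and 897 TPM in whole kidney. Every tubule lay above every kidney library, with a log2 difference of 0.29 ± 0.06 (adjusted p = 0.000455), and of 0.10 after quantile normalization (adjusted p = 0.118). Its partner Uqcrc2 was at 415 ± 17.7 and 439 ± 11.6 TPM, a log2 difference of -0.08 ± 0.05 (adjusted p = 0.20), but 0.21 after median-of-ratios rescaling (adjusted p = 0.00470). The small subunits Uqcrh (-0.33 ± 0.10, adjusted p = 0.0116) and Uqcrb (-0.30 ± 0.11, adjusted p = 0.0274) were lower in the deposited TPM, and neither call held without whole kidney replicate 1 or without whole kidney replicate 3.

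Cytochrome c1 and cytochrome c lie outside the symbol rule. Cyc1, a cytochrome of complex III, stood at 1084 ± 47.5 TPM against 983 ± 54.0 TPM in the kidney libraries, a log2 difference of 0.14 ± 0.05 (adjusted p = 0.0394). This difference was -0.05 after quantile normalization and was not called when any 1 of 6 libraries was left out. Cycs, the carrier between complexes III and IV, had 282 ± 48.4 and 394 ± 27.5 TPM, a log2 difference of -0.50 ± 0.14 (adjusted p = 0.00816), not called after median-of-ratios rescaling or without whole kidney replicate 2. Of the 6 complex III assembly genes, Uqcc3 was higher (0.22 ± 0.08, adjusted p = 0.0277), with 0.51 and 0.37 under the other scalings and no call without whole kidney replicate 2 or 3. Lyrm7 was lower (-0.61 ± 0.17, adjusted p = 0.00691), with no call under either rescaling or without whole kidney replicate 1.

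In complex IV, cytochrome c oxidase, none of the 11 general subunits was called higher and 4 were called lower in the deposited TPM, Cox7b, Cox5b, Cox6c and Cox5a. The shares of all genes tested were 9.68% higher and 41.5% lower. Cox7b ranged from 648 to 886 TPM in the tubules (median 835) against 1130, 998 and 1143 TPM, a log2 difference of -0.45 ± 0.11 (adjusted p = 0.00190). Cox5b was at 1448 ± 152 and 1867 ± 115 TPM (-0.37 ± 0.10, adjusted p = 0.00425), and Cox6c at 1698 ± 237 and 2181 ± 147 TPM (-0.37 ± 0.13, adjusted p = 0.0217). In these 3 the groups did not overlap, but after median-of-ratios rescaling the differences were -0.16, -0.08 and -0.08 and none was called. All 4 were also lower after quantile normalization. Cox6c was not called without whole kidney replicate 1 or 3, and Cox5a not without any 1 of 6 libraries, among them each kidney library. Ndufa4 did not pass the test, at 3450 ± 391 and 2999 ± 159 TPM (log2 difference 0.19 ± 0.10, adjusted p = 0.127). Cox7a2l, which was not counted among the subunits, was lower at 50.7 ± 4.84 against 74.9 ± 4.22 TPM. Its log2 difference was -0.56 ± 0.09 (adjusted p = 7.92e-05), and -0.27 after median-of-ratios rescaling (adjusted p = 0.0704).

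The largest differences among the members were in the isoforms of complex IV subunits that replace a general subunit in heart, skeletal muscle, brown fat, lung or testis. Cox7a1, the heart and muscle counterpart of Cox7a2, ranged from 15.03 to 45.42 TPM in the tubules (median 27.9) and stood at 123, 92.0 and 140 TPM in whole kidney. The log2 difference was -2.02 ± 0.22 (adjusted p = 1.11e-06), -1.73 after median-of-ratios rescaling and -1.90 after quantile normalization. As a share of Cox7a1 plus Cox7a2 in the deposited TPM, it was 3.29% ± 0.622 in PTS2 (1.94 to 4.40%) and 10.4%, 8.91% and 12.2% in whole kidney. The tubules kept a level of Cox7a1 above 0 in every library.

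Cox6a2, the heart and muscle counterpart of Cox6a1, was at 0 to 0.20 TPM in the tubules (median 0.050) and at 3.85, 8.02 and 16.0 TPM in whole kidney. Ndufa4l2, the paralog of Ndufa4 known for its rise in low oxygen, was at 0 to 0.57 TPM (median 0.230) in the tubules and at 4.13, 4.44 and 3.63 TPM in the kidney libraries. Both reached the filter only through the group where they are high, so these levels are given with no test. Cox6b2, an isoform known from testis, was at 1.2 to 5.66 TPM (median 3.28) against 10.7, 13.5 and 10.9 TPM, a log2 difference of -1.55 ± 0.31 (adjusted p = 0.000585). For all 4 isoforms every tubule lay below every kidney library. Cox6a2 shares 70 exonic bases with Itgad and Ndufa4l2 32 with Shmt2, both on the opposite strand.

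The remaining 4 isoforms were too low to be tested. Cox8b, the heart, muscle and brown fat counterpart of Cox8a, was at 0, 0.38 and 6.27 TPM in whole kidney replicates 1, 2 and 3, and at most 0.30 TPM in a tubule. Cox4i2, known from lung, was at 1.05, 0.52 and 0 TPM in whole kidney and at most 0.050 TPM in a tubule. Cox7b2 was at 0 in all 3 kidney libraries and between 0 and 2.45 TPM in the tubules (median 0.595). Cox8c was listed above 0 in 1 library, m1 replicate 1, at 0.11 TPM.

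Markers of many other cell types were also lower in the tubules. All 4 fibroblast and all 3 podocyte markers were lower in every tubule than in every kidney library. So were 3 of 4 macrophage markers, while 1 was called higher. The 6 pericyte and smooth muscle markers summed to 1.91 to 6.13 TPM in the tubules and to 83.5, 83.4 and 98.7 TPM in whole kidney, and 5 of the 6 were lower in every tubule than in every kidney library; 3 were at 0 in at least 1 tubule. The 5 endothelial markers summed to 10.3 to 36.5 TPM and to 130 to 137 TPM, with all 5 lower in every tubule. The 4 skeletal and heart muscle markers summed to at most 0.45 TPM in any library, with Ckm at 0 in every tubule. Whole kidney replicate 3, with the fat markers Ucp1 at 4.34 and Cidea at 6.97 TPM, also had the highest Cox8b, Cox6a2 and Cox7a1. The part of these cells in the isoform differences was not tested. Without that library, Cox7a1 was still called lower (-1.89 ± 0.27, adjusted p = 3.94e-05), as was Cox6b2 (-1.60 ± 0.38, adjusted p = 0.00365), while Cox6a2 and Ndufa4l2 then fell below the filter. Ndufa4l2 fell below it without any 1 of the 3 kidney libraries.

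**Figure D4:**
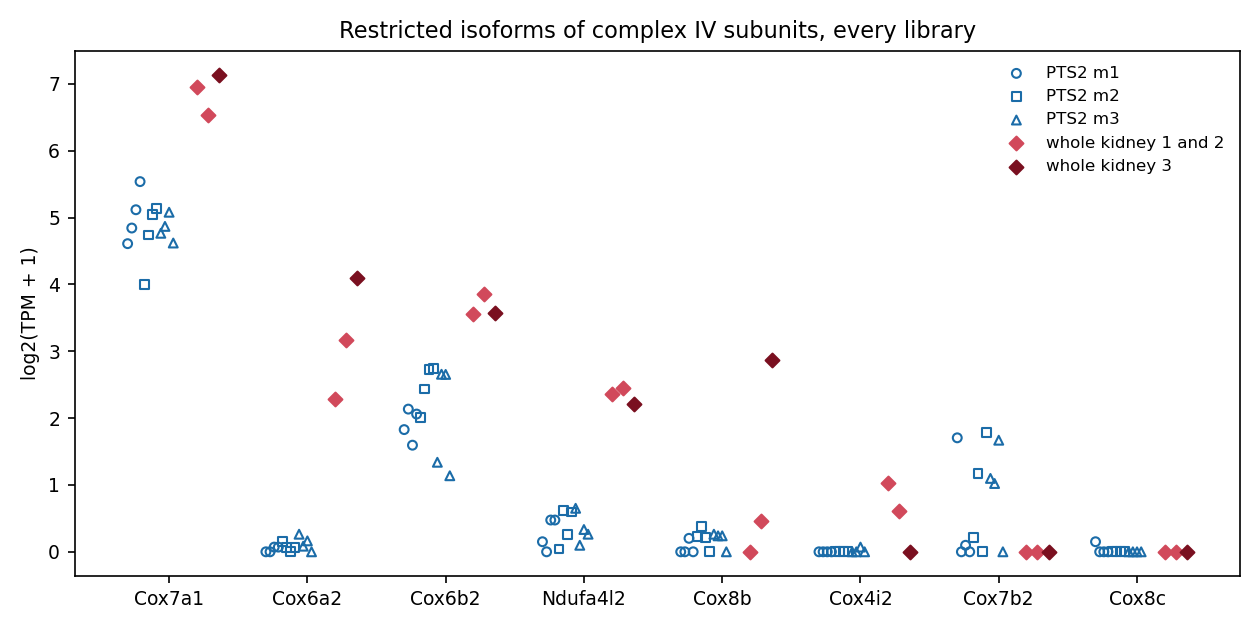
log2(TPM + 1) of 8 restricted complex IV isoforms (y axis) in every library, with PTS2 sets m1, m2 and m3 as open symbols and whole kidney as diamonds, replicate 3 in dark red. Cox7a1, Cox6a2, Cox6b2 and Ndufa4l2 lie lower in every tubule than in every kidney library. Cox8b is raised in whole kidney replicate 3 and Cox7b2 appears in tubules alone. For Cox7a1 and Cox6b2 the direction was the same under all 3 scalings. Cox6a2 and Ndufa4l2 reached the filter through whole kidney alone and so could only be lower.

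In complex V, none of 15 subunits was called higher and 7 were called lower in the deposited TPM: Atp5g1, Atp5h, Atp5o, Atp5g2, Atp5e, Atp5l and Atp5g3. Of all genes tested, 9.68% were called higher and 41.5% lower in that scaling. After median-of-ratios rescaling none of the 7 was called, and Atp5g2, Atp5g3 and Atp5l also lost their calls without whole kidney replicate 1, as did Atp5e without whole kidney replicate 1 or 3 and Atp5l without whole kidney replicate 3 or m1 replicate 1. After quantile normalization all but Atp5g2 and Atp5l were called lower. Atp5g1, 1 of 3 genes whose products form the same rotating c ring subunit, ranged from 538 to 818 TPM in the tubules (median 651) and stood at 1042, 924 and 1030 TPM in whole kidney. Every tubule lay below every kidney library. The log2 difference was -0.60 ± 0.10 (adjusted p = 0.000111), -0.80 after quantile normalization and -0.31 after median-of-ratios rescaling (adjusted p = 0.0792). Atp5h, of the peripheral stalk, was at 699 ± 54.9 and 907 ± 42.4 TPM, a log2 difference of -0.38 ± 0.08 (adjusted p = 0.000599).

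The make-up of the c ring messages can be read within each library. Atp5g1 held 18.8% ± 0.790 of the summed TPM of the 3 c ring genes in PTS2 (17.7 to 20.6%) and 22.9%, 22.3% and 23.7% in whole kidney. Atp5g3 held 79.7% ± 0.801 (77.9 to 80.8%) and 75.5%, 76.1% and 74.9%. The groups overlapped for neither share, while that of Atp5g2 overlapped at 1.49% ± 0.0860 and 1.51% ± 0.0723. The catalytic alpha subunit Atp5a1 (log2 difference 0.06 ± 0.06, adjusted p = 0.463) and the central stalk subunits Atp5c1 (-0.10 ± 0.06, adjusted p = 0.135) and Atp5d (0.04 ± 0.08, adjusted p = 0.669) did not pass the test. Among the complex V genes outside the rule, Usmg5 and 2010107E04Rik, which encode small membrane subunits, were lower in the deposited TPM (-0.35 ± 0.12, adjusted p = 0.0253, and -0.50 ± 0.12, adjusted p = 0.00313) but not called after median-of-ratios rescaling, nor was Usmg5 without whole kidney replicate 1 or 3, and the ATP synthase inhibitor Atpif1 did not pass the test (0.26 ± 0.11, adjusted p = 0.0620).

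Assembly genes of complexes IV and V were counted from their lists. Of 21 for complex IV, 2 were higher (Cox15 and Coa6) and 8 lower in the deposited TPM, while 7 were higher and none lower after median-of-ratios rescaling. The shares of all genes tested were 9.68% higher and 41.5% lower in the deposited TPM, and 23.5% and 23.8% after that rescaling. Higd1a had the largest difference downwards (-0.55 ± 0.10, adjusted p = 0.000187), with -0.37 after quantile normalization and no call after median-of-ratios rescaling (-0.26, adjusted p = 0.0888). Cox15, which acts in heme A synthesis, had the largest upwards (0.31 ± 0.12, adjusted p = 0.0348), with 0.60 and 0.49 after median-of-ratios rescaling and quantile normalization, but it was not called without whole kidney replicate 1 or 3 or m1 replicate 1. Coa6 was not called without whole kidney replicate 1, and of the 8 lower Coa3, Coa5, Coa7, Cox10, Cox14 and Sco2 each lost its call without at least 1 kidney library. Of 3 for complex V none was called. The tricarboxylic acid cycle genes gave 1 higher (Suclg1, 0.28 ± 0.06, adjusted p = 0.00152, with 0.57 and 0.14 under the other scalings) and 4 lower of 13, with Idh3a the lowest at -0.68 ± 0.08 (adjusted p = 1.55e-06) and lower under all 3 scalings.

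Of the 13 OXPHOS genes of mitochondrial DNA, 7 were tested and 6 are listed at 0 in every library (mt-Nd3, mt-Nd4l, mt-Co2, mt-Co3, mt-Atp6 and mt-Atp8). Genes that every respiring cell uses are among them, so a 0 there is no measure of absence. The 7 gave 1 higher and 6 lower in PTS2 in the deposited TPM, against 9.68% and 41.5% of all genes tested. The catalytic complex IV subunit mt-Co1 was at 4502 to 6780 TPM in the tubules (median 5652) and at 1287, 1234 and 2929 TPM in the kidney libraries, a log2 difference of 1.74 ± 0.19 (adjusted p = 1.02e-06), and of 2.03 and 1.58 under the other scalings. The other 6 lay between -0.43 and -0.74, and of these only mt-Nd5 was called after median-of-ratios rescaling (-0.44, adjusted p = 0.0118). Of the 6, mt-Nd2 lost its call without whole kidney replicate 1 or 3 and mt-Nd6 without replicate 2 or 3. The libraries were made from polyA RNA per the labels, and mitochondrial messages carry short tails. The listed genes of both genomes stood at 2.21 ± 0.173 TPM of nuclear subunits for each mitochondrial TPM in PTS2 and 1.91 ± 0.0896 in whole kidney. The groups overlapped: m1 replicate 4, at 1.79, lay below every kidney library (1.83 to 2.01), while the other tubules lay above them. The mitochondrial side rests on the 7 genes tested, as the other 6 are at 0.

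Some regulators of mitochondrial biogenesis differed by more than any of the 74 subunit genes. Of 11 listed, 10 were tested, none was higher and 6 were lower in the deposited TPM. Among all genes tested, 9.68% were higher and 41.5% lower. The regulators' median log2 difference was -0.55 against -0.09 for the members and -0.27 for all genes. After median-of-ratios rescaling the 3 medians were -0.29, 0.20 and -0.00, and after quantile normalization 0.10, -0.21 and 0.16. The sign of the regulators' median thus rests on the scaling. Ppargc1a, the coactivator PGC-1alpha, ranged from 6.66 to 15.4 TPM in the tubules (median 10.3) and stood at 49.4, 52.4 and 49.8 TPM in the kidney libraries, a log2 difference of -2.22 ± 0.21 (adjusted p = 1.46e-07). Esrra, the estrogen-related receptor alpha that PGC-1alpha activates, ranged from 15.8 to 25.5 TPM (median 21.2) against 54.7, 59.1 and 45.9 TPM, a log2 difference of -1.31 ± 0.14 (adjusted p = 5.34e-07). Esrrg, its gamma relative, ranged from 13.6 to 23.1 TPM (median 17.98) against 32.8, 37.4 and 25.8 TPM, a log2 difference of -0.80 ± 0.13 (adjusted p = 0.000103). In these 3 genes every tubule lay below every kidney library, and the calls held under all 3 scalings. Markers of segments beyond the proximal tubule moved with them. All 5 thick ascending limb, 3 distal convoluted tubule, 3 connecting tubule, 3 principal cell and 5 intercalated cell markers were lower in every tubule than in every kidney library, and none was at 0 in all tubules. The distal convoluted tubule markers summed to 0 to 0.55 TPM in the tubules and 202 to 212 TPM in whole kidney, and the intercalated cell markers to 0 to 0.44 and 161 to 176 TPM. The connecting tubule markers summed to 3.04 to 195 and 4518 to 5970 TPM, the principal cell markers to 7.84 to 50.02 and 527 to 792 TPM, and the thick ascending limb markers to 4.75 to 1441 and 2425 to 2723 TPM. The part of these cells in the differences of the regulators and of the members was not tested.

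The others were closer to whole kidney. Nrf1 (-0.53 ± 0.17, adjusted p = 0.0149), Ppargc1b (-0.57 ± 0.22, adjusted p = 0.0381) and Pprc1 (-0.61 ± 0.19, adjusted p = 0.0122) were lower in the deposited TPM and under neither rescaling, and each lost its call when whole kidney replicate 2 or 3 was left out (Nrf1 without replicate 2, Pprc1 without replicate 3, Ppargc1b without either or without any 1 of 3 tubules). Gabpa (-0.25 ± 0.17, adjusted p = 0.241), the mitochondrial DNA packaging factor Tfam (-0.15 ± 0.12, adjusted p = 0.294), Tfb2m (-0.06 ± 0.11, adjusted p = 0.664) and the mitochondrial RNA polymerase Polrmt (0.07 ± 0.13, adjusted p = 0.666) did not pass the test in the deposited TPM. Polrmt was called higher under both rescalings (0.36 and 0.34), and Tfb2m after quantile normalization (0.52). Esrrb was too low to be tested, with means of 0.0767 TPM in the tubules and 1.87 TPM in the kidney libraries.

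Among the 3 PTS2 sets, none of the 87 members tested was called by the limma F test, against 3.02% of all 11300 genes. At an unadjusted p under 0.05 there were 6 (Atp5g1, Atp5d, Ndufaf4, Sdhd, Ndufs3 and Atp5g2), where 16.4% of all genes lay, and the lowest adjusted p was 0.209 (Atp5g1). The pairwise contrasts gave no call for m2 against m1 (background 0.54%), m3 against m1 (3.17%) or m3 against m2 (1.97%). At an unadjusted p under 0.05 they gave 1, 15 and 1 members. The share of all genes at an unadjusted p was not counted for these contrasts, so the 3 counts cannot be weighed. By set, m1 to m3 in order with 4 tubules each, Atp5g1 had 726 ± 73.5, 666 ± 53.5 and 592 ± 56.2 TPM, a log2 difference of -0.29 ± 0.09 for m3 against m1 (adjusted p = 0.110). Without m1 replicate 1 this contrast alone was called, at -0.35 ± 0.09 (adjusted p = 0.0398). Atp5d had 1228 ± 140, 1160 ± 44.3 and 1047 ± 12.9 TPM (-0.22 ± 0.07, adjusted p = 0.134), and Sdhd 711 ± 14.2, 662 ± 19.1 and 644 ± 14.2 TPM (-0.14 ± 0.05, adjusted p = 0.156). Ndufs3 had 342 ± 5.69, 334 ± 9.21 and 308 ± 14.3 TPM, and Ndufaf4 64.1 ± 8.72, 62.6 ± 4.38 and 75.2 ± 3.80 TPM.

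Most fitted differences among the sets had the same sign. Of the 87 members, 67 were negative for m2 against m1, 69 for m3 against m1 and 71 for m3 against m2, with medians of -0.04, -0.12 and -0.09 against 0.04, 0.09 and 0.04 for all genes. The 3 contrasts share libraries and the members share their library's scale, so these counts are no independent evidence. The summed subunits held 8.25% ± 0.599 of TPM in m1, 8.05% ± 0.397 in m2 and 7.64% ± 0.721 in m3, which overlapped.

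Within a set the members varied with the length of their transcripts. For this description, chosen after the data were seen, the members were split by the median length of their annotated protein-coding transcripts, and each library's deviation from the gene's mean over the 12 tubules was taken. The 36 members of up to 700 bases, many of them small subunits of complexes I, III and IV, had a median deviation of -0.37 (log2) in m3 replicate 4, where all 36 lay below their mean. In m1 replicate 1 it was -0.15 (35 of 36 below) and in m1 replicate 2 it was 0.20 (1 of 36 below). The median of all 321 genes of that length was -0.26, -0.14 and 0.15 in these libraries.

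The median deviation of the 34 members over 1000 bases, among them all 4 complex II subunits, stayed between -0.04 and 0.05 in all 12 tubules, while single members moved further: Sdha was at 641 TPM in m1 replicate 2 against a mean of 831 TPM. The median of all 9297 genes of that length ran from -0.16 in m1 replicate 2 to 0.13 in m3 replicate 4, opposite to the short genes in these libraries. The tubule with the lowest summed subunits, m3 replicate 4 at 6.65% of TPM, is thus also the one with the lowest median of short transcripts of any kind. Against whole kidney, 1 of the 37 shortest members was higher and 14 were lower in the deposited TPM (37.8% lower), with a median of -0.17. Among the 14 is Cox6a2, which reached the filter through whole kidney alone and so could only be lower. Genes of that kind were left in the background as well. Of all 342 genes of that length, 33 were higher and 115 lower (33.6%), with a median of -0.14, so the short members' share lower was near that background. Of the 34 longest members 6 were higher and 8 lower (23.5% lower), with a median of -0.02, against 926 higher and 4416 lower (44.5%) of all 9928 genes of that length, with a median of -0.30. The part of transcript length in the differences was not tested.

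**Figure D5:**
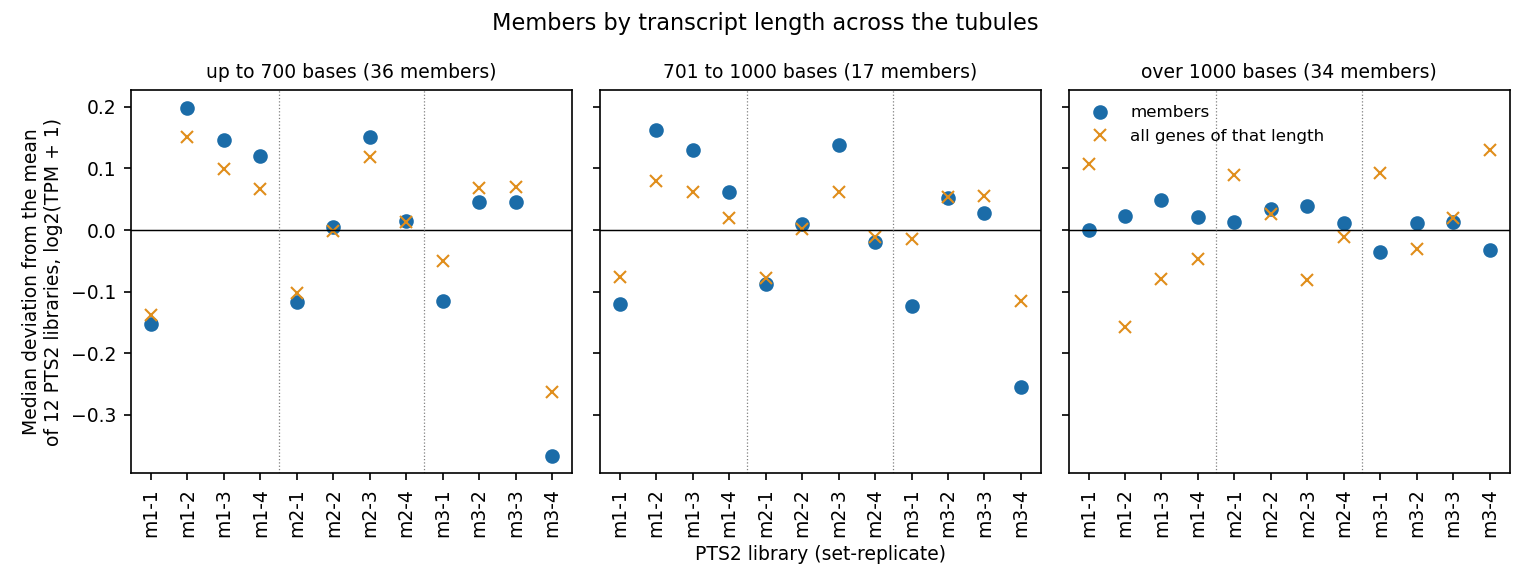
Median deviation from the mean of the 12 PTS2 libraries, log2(TPM + 1) (y axis), by library (x axis, set and replicate), for members (circles) and for all genes of the same transcript length (crosses), in 3 length classes. The medians of short members and of short genes move together, down in m3 replicate 4 and up in m1 replicate 2, while the median of members over 1000 bases stays near 0; the values are those of the deposited TPM.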

How the data were processed

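The authors deposited 1 table of TPM values, with a row per gene and a column per library, from SMART-Seq V4 cDNA of polyA RNA sequenced on an Illumina instrument, per the labels' protocols and the design text. The submitters' processing notes name STAR 2.5.1b, RSEM 1.2.31 and GRCm38.p5. All columns had the same sum apart from rounding. Libraries were grouped by their description labels.

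The test was that of limma 3.58.1 (lmFit, eBayes with trend; R 4.3.3) on log2(TPM + 1), over all genes whose mean reached 1 TPM, with Benjamini-Hochberg adjustment over all of them and a threshold of 0.05. The set was a correlated block in the comparison with whole kidney (correlation 0.0669). Sums, shares and ratios have no test. Both fits were tested on simulated data, whose settings and outcome are not given here, so no call rests on that test. Lengths, exons and near copies came from GENCODE M21, which held all 93 member IDs, and BLAST 2.17.0, and promoters from RefSeq (GRCm38.p6). Figures were drawn with matplotlib 3.10.9.

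Every member could be named, but the values of 1 subunit gene are not reported here or drawn in the plot of differences by complex. Full values went to Atp5b, the highest and lowest subunit of each complex, up to 3 called members per complex and direction, the members lowest in F p, isoform families and regulators. Other lists gave up to 3 genes per direction. Members, lists and tests were chosen with earlier results of these data known. Alternatives were a pseudocount of 0.1, no filter or a minimum of 10 TPM, quantile normalization, median-of-ratios rescaling, leaving out mitochondrial genes or each library in turn, 1 mean per set, no within-set correlation, a replicate block, and medians over subunits.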

Additional observations from a re-analysis of the deposited data

Results flagged for a closer look

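The highest and lowest library of each group of 4 was compared with its nearest neighbour (Dixon's test) in 147 sets of values. In these, 11 values from 6 libraries stood apart, where chance gives about 7.35 if values are normal and independent. A single value above 0 among zeros is always flagged, as for Cox4i2, Cox8c and Cox8b in m1 replicate 3. The 11 can therefore not be weighed against chance. The summed TPM of complex II was 3013 in m1 replicate 2 against 3096 in the next library. Atp5d had 1437 TPM in m1 replicate 2 (next 1178), and Ndufaf5 had 5.07 TPM there (next 11.3). In m3 replicate 4, Ndufa11 had 63.2 TPM (next 80.6) and Uqcrc2 440 TPM (439.82, next 408.89). Ndufs3 had 320 TPM in m2 replicate 1 (next 338). Cox7b2 had 2.26 TPM in m1 replicate 1 (next 0.070), and Cox8c 0.11 TPM there (next 0). Cox4i2 had 0.050 TPM in m3 replicate 3 (next 0). Cox8b had 0.15 TPM in m1 replicate 3 (next 0) and 0 TPM in m3 replicate 4 (next 0.18).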

How the results depend on the processing

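Scaling changed the most. Under median-of-ratios rescaling 26 members were higher and 4 lower in PTS2 instead of 7 and 28, the complex sums were 122%, 117%, 117%, 112% and 113% of whole kidney for complexes I to V, and 42 of the 65 negative log2 differences turned positive, among them, of the members described in full and called under either scaling, Atp5b (0.28), Atp5g3 (0.054), Ndufaf4 (0.24), Sdha (0.0038), Sdhb (0.29), Sdhd (0.22) and Uqcrc2 (0.21). Quantile normalization gave 46 lower. With medians over subunits in place of sums, complex II stood at 97.3% and complex V at 86.1%. Leaving out each library in turn gave 6 to 10 members higher and 15 to 30 lower, and 0 to 1 called for m3 against m1. The cause of these shifts was not tested. With TPM alone, depth cannot be weighed.

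The replicate numbers did not meet the rule for pairs: 7 of 12 pairs of tubules with the same number had a correlation of deviations over 0.1 (mean 0.143, other pairs -0.0481), and 9 of 12 libraries correlated best with their own number. With the replicate number as a block, 2 members were called for m3 against m1 instead of 0 (Atp5g1, -0.29, adjusted p = 0.0379, and Atp5j2, -0.29, adjusted p = 0.0487). The F test with this block called 0 members (16 at an unadjusted p under 0.05), and the comparison with whole kidney gave 9 higher and 25 lower. The share of all genes called with this block was not counted, so these counts cannot be weighed.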
